A study of Mus musculus with 2 samples.

Results

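Basal keratinocytes (KCs) are the dividing cells of the lowest epidermal layer and of the outer wall of the hair follicle. They hold Krt5 and Krt14 filaments, are anchored to the basement membrane through hemidesmosomes and depend on the transcription factor Trp63, and they switch to Krt1 and Krt10 as they move up. In inflamed skin they are known as a source of the alarmin Tslp and of ligands of the EGF receptor, and they carry the vitamin D receptor that MC903 (calcipotriol, a vitamin D analogue) binds.

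Dorsal skin was profiled by single-cell RNA-seq, with 1 library for Ctrl and 1 for AD, both from female C57BL/6J mice aged 7 weeks whose hair had been removed 24 h before the first application. AD skin received 4.5 nmol of MC903 in 100% ethanol on an area of 2 × 2 cm at each of 10 daily applications, Ctrl skin received the ethanol alone, and both were taken on day 10. No genetic alteration is named for either group, and the number of mice behind a library is not given in the sources used here. MC903 on skin is a model of AD-like inflammation rather than the human disease.

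A cell counted as a basal KC when Krt5 and Krt14 together made up at least 0.5% of its unique molecular identifiers (UMIs, distinct transcript molecules). Krt1, Krt10 and Krtdap together had to stay below 0.5%, the follicle keratins Krt25, Krt27, Krt71 and Krt35 below 0.2%, and Pdgfra, Ptprc and Pecam1 at 0. Among the 19578 barcodes that had between 200 and 6000 genes and no more than 10% of UMIs from mitochondrial genes, 402 met this rule. They were 300 of 11399 Ctrl cells, or 2.63% (95% exact Clopper-Pearson interval 2.35 to 2.94), and 102 of 8179 AD cells, or 1.25% (1.02 to 1.51). Only 1 basal barcode, a Ctrl cell, had the same sequence as a barcode of the other library, out of 35 such barcodes, and no barcode was basal in both. The Ctrl cells held 3335817 UMIs with a median of 9499.5 a cell, and the AD cells held 1791210 with a median of 16135. The 10 deepest cells gave 8.99% of the basal UMIs in Ctrl and 22.1% in AD, so levels in AD rest on fewer cells.

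Basal cells of a library were summed, and each gene's share of the sum, counted at the 3′ end of transcripts, is given in CPM, where 10000 CPM is 1% of the UMIs. With 1 library a condition no difference could be tested, and the 95% intervals given below cover counting error only, not differences between mice or preparations. Differences are log2 ratios of AD over Ctrl after 1 CPM was added, for the 3208 genes with a mean of at least 50 CPM. Of these, 131 genes (4.08%) had a log2 ratio of at least 1 and 218 (6.8%) of at most −1. These are called higher and lower below, with no test behind the words, and a list member is called measured when it is among the 3208 genes. A gene can reach the mean through 1 library alone, so counts over a list favour wide ratios. Every count over a list below is to be read beside the 4.08% higher and 6.8% lower among all 3208 genes. The median gene had a log2 ratio of −0.15. After centring on it, 179 genes were higher and 157 lower by the same measure, so the balance between the directions depends on the scaling.

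**Figure D1:**
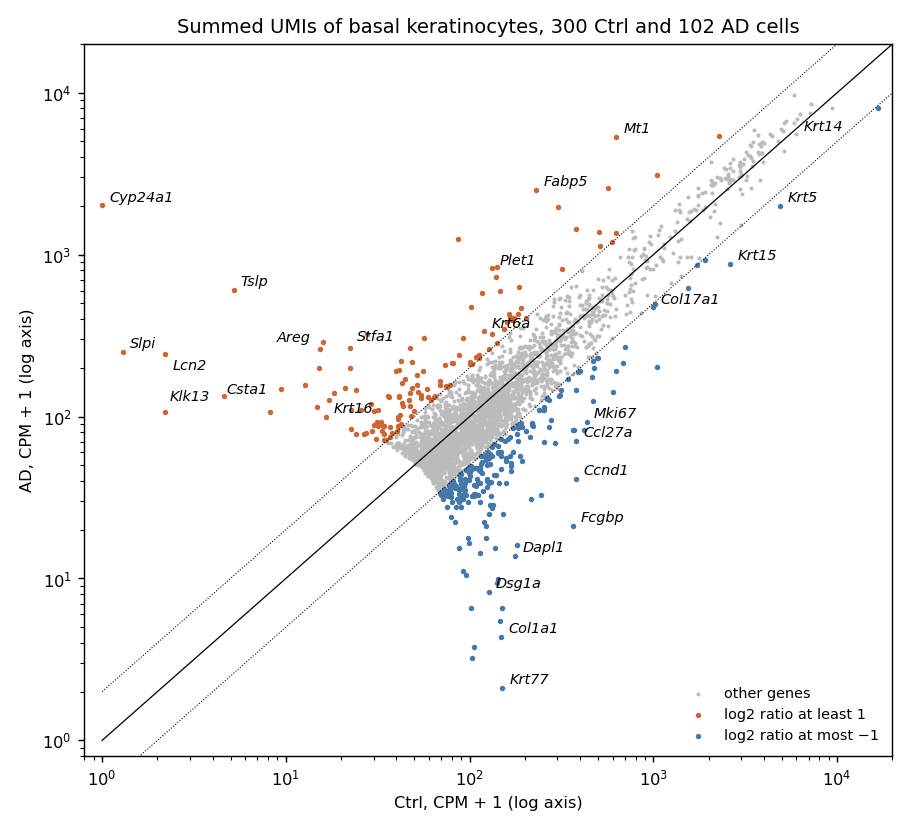
Each point is 1 of 3208 genes, with its level in the summed Ctrl basal KCs (x axis, CPM + 1) and AD basal KCs (y axis, CPM + 1), both on log axes; dotted lines mark a log2 ratio of 1 and −1. Cyp24a1 stands at 2019 CPM in AD and 0 in Ctrl, Tslp at 603 and 4.20, while Krt14 lies near the diagonal and Krt77 far below it.

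The label was checked against the 4 basal markers. Krt14 and Krt5 chose the cells, so their levels are a description only, and Krt15 and Trp63 were not used by the rule. Krt14, the acidic basal keratin, was at 5982 CPM in Ctrl and 5550 in AD. Its partner Krt5 was at 4893 and 2005, so the pair was present at unequal levels in AD. Krt15, a keratin of basal and bulge cells, was at 2609 and 880 CPM, a log2 ratio of −1.57 (counting interval −1.65 to −1.49). Trp63 was at 446 and 281 CPM. Krt15 or Trp63 was detected in 97.3% of the Ctrl and 90.2% of the AD basal KCs, and both were in 83.7% and 44.1%. With each cell thinned to 1000 UMIs, Krt15 was detected in 71.2% and 29.0% and Trp63 in 32.2% and 16.1%. Outside KCs, Krt15 was at 17.4 and 4.39 CPM and Trp63 at 38.6 and 4.62.

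Anchoring genes were mostly present at a similar or lower level in AD. Of 17 genes of the hemidesmosome and basement membrane list, 12 reached 50 CPM. Among them 3 were lower by a log2 ratio of at least 1 and none was higher, with a median of −0.35 beside −0.15 for all genes. Of all 3208 genes 6.8% were lower and 4.08% higher. Col17a1, the transmembrane collagen of hemidesmosomes, was at 991 CPM in Ctrl and 472 in AD, Dst (the hemidesmosomal plakin) at 1023 and 495, and the laminin chain Lamb3 at 128 and 50.2. After centring on the median gene, 1 of these 3, Lamb3, was still lower, and with cells thinned to 1000 UMIs Lamb3 was at −0.54 on the log2 scale. The integrins lay closer together. Itga6 was at 447 and 376 CPM, Itgb4 at 132.5 and 107, and Itga3 at 86.0 and 111. Among 13 genes of adherens junctions and desmosomes, 2 were lower and none higher, with a median of −0.31. Dsc3, a desmosomal cadherin, was at 686 and 212 CPM and Ctnnb1, the β-catenin of adherens junctions, at 473 and 198, whereas Cdh1 (E-cadherin) was at 267 and 279.

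The widest gap was that of Cyp24a1, the enzyme that breaks down active vitamin D and a standard target of its receptor. The gene lies on chromosome 2 (170482708 to 170497145, minus strand, GRCm38, GENCODE M21). No Cyp24a1 UMI was found in 300 Ctrl cells, which allows up to 0.899 CPM and 1% of cells with a UMI, though not a limit on cells that express it, against 3617 UMIs or 2019 CPM (1954 to 2086) in AD. The lower counting limit of the plain log2 ratio was 10.83. In AD, 71.6% of the basal cells had a UMI, and 44.1% when each cell was thinned to 1000 UMIs, beside 3.39% of thinned AD cells that were not KCs. Levels per AD cell ran from 0 through a median of 6.72 to 175 UMIs per 10000, and the 10 cells with the most UMIs held 58.0% of them. The receptor Vdr itself was at 196 CPM in Ctrl and 130 in AD, and its partner Rxra at 68.0 and 36.8. Cyp27b1, which makes active vitamin D, had 19 UMIs in Ctrl and 0 in AD. Of the 4 vitamin D genes that reached 50 CPM, Cyp24a1 and Tslp were higher. Both reached that mean only through AD, so the count does not describe the list.

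Tslp was at 4.20 CPM in Ctrl (14 UMIs) and 603 CPM in AD (1080 UMIs), a log2 ratio of 6.86 (6.41 to 8.04). The AD level came from few cells. Tslp UMIs were found in 14 of 300 Ctrl and 16 of 102 AD cells, and 10 AD cells held 98.7% of the AD UMIs, with up to 91.8 per 10000 in a cell. Of the 16 AD cells with Tslp, 14 also had Cyp24a1, and 59 cells had Cyp24a1 alone. After thinning to 1000 UMIs, Tslp was left in 2 of the 292 Ctrl cells with enough UMIs (0.685%) and 6 of the 93 such AD cells (6.45%). In cells that were not KCs, Tslp was in 0.723% and 0.983% after thinning, so the Ctrl basal share was at this background.

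Basal cells were split at 0.1% of UMIs from a list of outer root sheath, bulge and upper follicle genes, a range and not a type, whose members include Sox9, Krt79, Postn and Lhx2 but neither Krt15 nor Col17a1. Below the split lay 107 Ctrl and 53 AD cells, and 69 Ctrl and 31 AD cells lay between 0.05% and 0.15%. Tslp in AD was at 1007 CPM below the split and 1.39 above it, while Ctrl had 2.32 and 5.38. Cyp24a1 did not divide in this way, with 2475 CPM below and 1341 above in AD. Krt15 was at 3578 CPM in Ctrl and 225 in AD below the split, and at 1995 and 1855 above it. Col17a1 followed the same order, with 1370 and 354 below and 752 and 648 above. The gap in Krt15 and Col17a1 was thus wider below the split. Of 7 measured list members 4 were themselves lower in AD, so the change helps to decide which cells fall below it. Nothing more is read from the split.

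**Figure D2:**
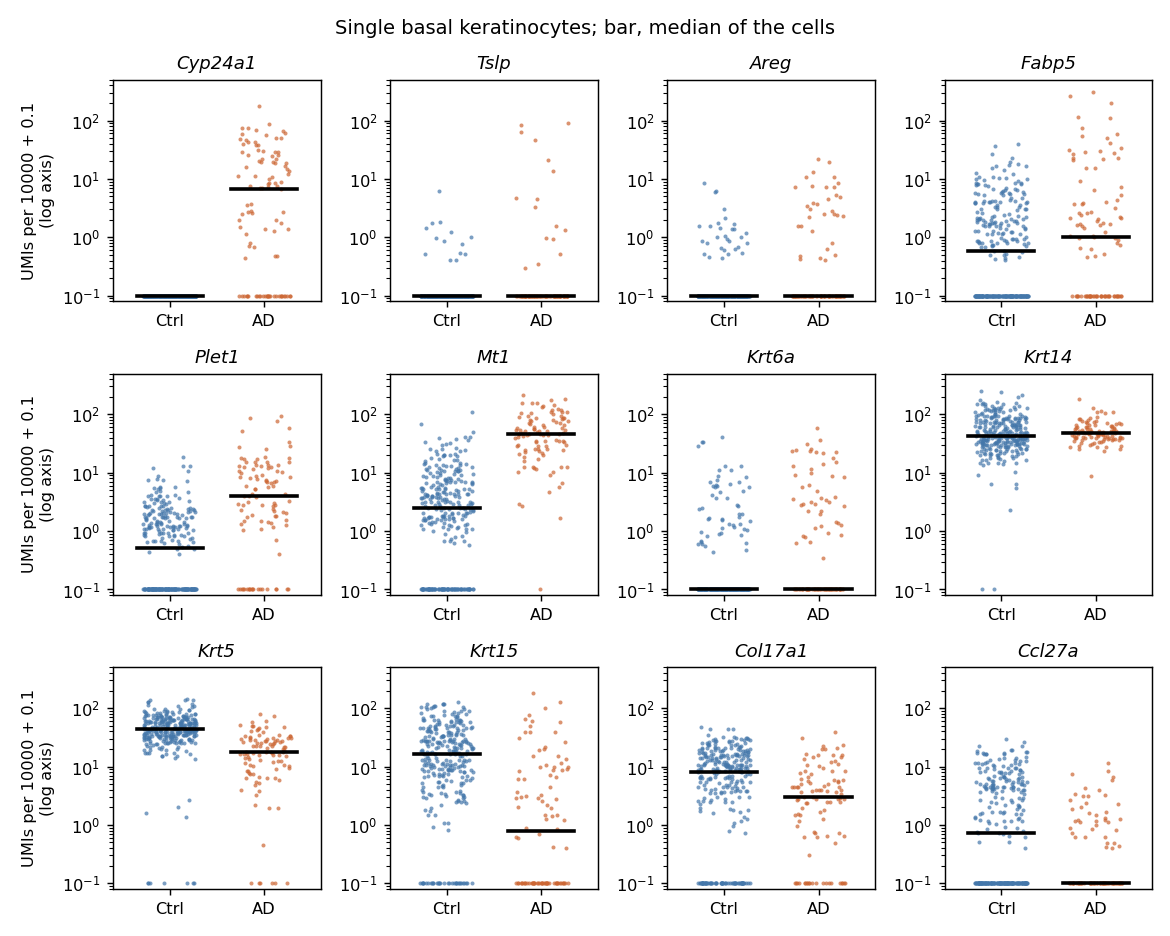
Each point is 1 basal KC (300 Ctrl, 102 AD) with its level of a gene in UMIs per 10000 plus 0.1 on a log axis; bars mark the median of the cells. Cyp24a1 and Mt1 are higher over most AD cells, Tslp lies in 16 AD cells, and Krt15 reaches a median of 16.2 in Ctrl and 0.686 in AD.

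The follicle list itself was present in both libraries. Krt79, a keratin of the upper follicle, was at 446 CPM in Ctrl and 563 in AD, where 10 cells held 85.1% of its 1008 UMIs and a single cell 485. Sox9, a factor of the outer root sheath, was at 744 and 439. Of 7 members that reached 50 CPM, 4 were lower and 1 higher, beside 6.8% and 4.08% of all genes. Lower were Postn, a matrix protein, at 366 and 82.1 CPM, Lhx2, a bulge factor, at 166 and 50.8, Tbx1 at 89.6 and 37.4, and Lgr5, a stem cell receptor, at 83.0 and 35.2. Postn had the same direction outside KCs, at 782 and 52.4 CPM, and the part of free RNA in its basal level was not tested. Dkk3 was higher, at 40.5 and 132. Below the split neither Tbx1 nor Lgr5 was at −1 or less, but as list members both help to define it, so nothing is read from this. At least 0.1% of the UMIs came from the list in 64.3% of Ctrl and 48.0% of AD basal cells, and the part of this mix in the differences was not tested beyond the split above.

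Epidermal growth factor ligands were unequal. Of 7 measured members of the EGF receptor system, 3 were higher and 1 lower, beside 4.08% and 6.8% of all genes. Areg (amphiregulin), a ligand of the EGF receptor, was at 14.4 CPM in Ctrl and 260 in AD, and reached the mean of 50 CPM only through AD. It had UMIs in 10.0% and 32.4% of cells (2.05% and 10.8% thinned). In AD 10 cells held 81.5% of the Areg UMIs, and the median cell had 0 in both libraries. Outside KCs Areg was at 32.2 and 17.6 CPM. Epgn (epigen), another ligand, was at 51.0 and 179 in basal cells. The ligand Hbegf was at 217 and 156 CPM and the receptor Egfr at 141 and 87.1. Errfi1, a feedback inhibitor of the receptor, was at 169 and 392 CPM, but at a log2 ratio of −0.33 in cells with at least 1% Krt5 and Krt14, and Lrig1, which limits receptor levels, at 114 and 47.4. Errfi1 was also higher outside KCs, at 693 and 1524 CPM, while Lrig1 was at 36.0 and 39.3 there. Of 33 AD cells with Areg, 15 also had Tslp, and 1 cell had Tslp without Areg, while after thinning none had both. The 120 bases before the start of Areg (RefSeq, GRCm38.p6, chr5:91139479-91139598, plus strand) are shown because Areg is among the 15 highest ratios. In suprabasal KCs it was at 331 CPM in Ctrl. Capitals mark TGACGTCA, the full cyclic AMP response element, and TATAAA, searched on both strands and not overlapping; these were found in 1.24% and 6.34% of all 32851 RefSeq promoters over the same 120 bases.
Areg: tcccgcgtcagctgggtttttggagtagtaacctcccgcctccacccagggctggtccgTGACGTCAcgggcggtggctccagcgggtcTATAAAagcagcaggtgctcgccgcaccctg

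Some antimicrobial and protease inhibitor genes were among the highest ratios. Slpi, an inhibitor of leukocyte proteases, had 1 UMI in Ctrl and 448 in AD, where it was at 250 CPM, with a log2 ratio of 7.59 and a counting interval of the plain ratio of 7.22 to 15.01. It was found in 32 AD cells, and 10 of them held 89.5% of its UMIs. Slpi was also higher outside KCs, at 3.49 and 38.7 CPM. Chil1, a chitinase-like secreted protein, was at 11.7 and 156 CPM, with UMIs in 2.05% and 12.9% of thinned cells. Outside KCs Chil1 was at 0.999 and 1.36 CPM. Lcn2, an iron-binding antimicrobial protein, had 4 UMIs in Ctrl and was at 242 CPM in AD, beside 166 in AD cells that were not KCs. Of 18 members of the alarmin list in the data 4 reached 50 CPM. These 3 were higher and Defb6, a β-defensin, was lower, at 254 and 113. Slpi, Chil1 and Lcn2 reached that mean only through AD, so the count does not describe the list. Defb6 turned direction, to a log2 ratio of 0.26, as the mean of the CPM of each cell and to 1.38 in cells with at least 1% Krt5 and Krt14. S100a8, which neutrophils also express, was at 14.7 and 8.93 CPM, and S100a9 had 5 and 13 UMIs.

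Of the stefins, intracellular inhibitors of cysteine proteases encoded side by side on chromosome 16, Csta1, Stfa1 and Cstdc5 were higher in AD. Csta1 was at 8.39 CPM in Ctrl and 148 in AD, Stfa1 at 21.3 and 265, and Cstdc5, named here after its values were seen, at 140 and 839. Stfa3 of the same cluster was at 371 and 206. The levels were held by few cells, and in AD 10 cells had 95.6% of the Stfa1, 93.3% of the Cstdc5 and 88.7% of the Csta1 UMIs. Stfa1 and Cstdc5 share 98.7% of the last 300 bases of their transcripts, where 3′ reads fall, so the division of UMIs between them is uncertain. Stfa1 and Stfa3 share 82.7% there.

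Other genes among the 15 highest ratios had varied roles. Klk13 and Klk10, kallikrein proteases of the epidermis, were at 3.60 and 133 CPM and at 13.8 and 114. Fabp5, the epidermal fatty acid-binding protein, was at 230 CPM in Ctrl and 2504 in AD, a log2 ratio of 3.44 (3.33 to 3.56). Here too 10 AD cells held 90.4% of the UMIs, and the median AD cell had 0.926 UMIs per 10000 against 0.471 in Ctrl. Pdk4, a kinase that curbs glucose oxidation, had 50 UMIs in Ctrl and 515 in AD (288 CPM). Pdk4 was also higher outside KCs, at 9.34 and 58.6 CPM. Ass1, an enzyme of arginine synthesis, was at 21.3 and 200 CPM. Plet1, a surface protein of upper follicle progenitors, was at 132 and 825 CPM. It had UMIs in 13.4% of Ctrl and 41.9% of AD cells after thinning, and outside KCs it was at 8.94 and 8.17 CPM. Fjx1 was at 16.2 and 125 CPM, with UMIs in 1.71% and 9.68% of thinned cells. Outside KCs Fjx1 was at 7.39 and 22.4 CPM.

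Of 3 measured keratins of activated epidermis 2 were higher, through few cells. Krt6a was at 119 CPM in Ctrl and 335 in AD, and Krt16 at 15.6 and 98.3. In AD 10 cells held 81.3% of the Krt6a and 86.9% of the Krt16 UMIs, and the median cell had 0 of either in both libraries. Krt17, also found in the outer root sheath at rest, was at 2314 and 1561 CPM. Krt17 took opposite directions on the sides of the follicle split, with 787 CPM in Ctrl and 1578 in AD below it and 3280 and 1535 above it. Krt6a is nearly identical to Krt6b, which had 1 UMI in Ctrl and 0 in AD, so their counts cannot be told apart with certainty.

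Of 15 measured genes of early differentiation and Notch signalling, 2 were higher, 2 were lower and the median was 0.03. Of all genes 4.08% were higher and 6.8% lower. Fabp5 and Sprr1a, a cornified envelope precursor at 23.1 and 145 CPM, were the higher members. Notch1, a receptor that drives the exit from the basal layer, was at 264 and 127 CPM and the factor Maf at 192 and 85.4. Notch1 lay above −1 after centring on the median gene and Maf with cells thinned to 1000 UMIs. The ligands Jag1 and Jag2 were at 166 and 127 CPM and at 124 and 127, Klf4 at 1029 and 865 and Sfn (14-3-3σ) at 886 and 1080.

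Among the 15 lowest ratios were those of several structural and regulatory genes. Krt77, a suprabasal keratin, had 499 UMIs in Ctrl and 2 in AD, a log2 ratio of −6.15 with a counting interval of the plain ratio of −10.1 to −5.21. Krt77 had the same direction outside KCs, at 28.1 and 0.0178 CPM, and the part of free RNA in its basal level was not tested. Krt1 and Krt10, which the rule limited, were at 80.3 and 5.02 CPM and at 131 and 26.2. Krtdap, limited together with them, had the opposite direction, at 165 and 328 CPM. Fcgbp, an IgG Fc-binding mucin-like protein, was at 364 and 20.1 CPM, with UMIs in 36.0% and 13.7% of cells, and after thinning in 16.1% of Ctrl and 0 of 93 AD cells, which allows up to 3.23% of cells with a UMI at that depth. Dapl1, a gene of early differentiating epithelium, was at 177 and 12.8 CPM, and Dsg1a, a desmosomal cadherin of differentiating layers, at 126 and 7.26. Npnt (nephronectin), a basement membrane ligand of integrins at the follicle, was at 101 and 5.58. Sox21, a factor of hair and epidermal cells, was at 114 and 13.4, and Id4, an inhibitor of helix-loop-helix factors, at 215 and 30.1. Pdzrn3, Samd5 and Btbd3 were at 122, 151 and 97.1 CPM in Ctrl and at 16.7, 24.0 and 16.7 in AD. In the cells below the follicle split Samd5 was at a log2 ratio of −0.73.

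Of 13 measured members of the cell cycle list 5 were lower in AD, none was higher, and the median was −0.97 beside −0.15 for all genes. Of all 3208 genes 6.8% were lower and 4.08% higher. In cells that were not KCs the same members had a median of −0.91, with Mki67 at 164 and 16.1 CPM. The direction was thus not particular to basal cells. Mki67, a proliferation marker, was at 434 CPM in Ctrl and 92.1 in AD, Top2a, the mitotic topoisomerase, at 245 and 31.8, Stmn1 at 470 and 123, and the centromere gene Cenpf at 180 and 15.1. Ccnd1 (cyclin D1, which starts the cycle) was at 378 and 40.2 CPM, with UMIs in 30.5% and 3.23% of thinned cells. Outside KCs Ccnd1 was at 126 and 12.0 CPM. Anln, Cenpe and Prc1, genes of mitosis and cytokinesis, were also among the 15 lowest ratios. At least 2 UMIs of 7 mitotic genes, Mki67, Top2a and Cenpf among them, were found in 40.3% of Ctrl and 30.4% of AD cells at their own depths. With these cells left out, Ccnd1 was at a log2 ratio of −3.07 and Stmn1 at −0.97. Ratios of the 7 genes that chose the cells are set by that choice and are not read here. The other 8 measured members ran from Hmgb2, at 853 and 433 CPM, and Hells, at 68.6 and 34.6, to the inhibitor Cdkn1a, at 232 and 291, with Pcna at 213 and 137 and Ccnd2 at 465 and 428.

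Chemokine ligands showed both directions, with 2 of 7 measured members higher and 2 lower, beside 4.08% and 6.8% of all genes. Ccl27a, a ligand that draws skin-homing T cells, was at 377 CPM in Ctrl and 69.8 in AD, and Cxcl12 at 110 and 38.5. Cxcl1, which recruits neutrophils, was at 14.1 and 200 CPM, but cells that were not KCs held more (280 and 1318). Cxcl10 was at 30.3 and 91.0 CPM, in 2.74% and 4.30% of thinned cells beside 7.39% and 7.92% of those that were not KCs. Across the settings tried the log2 ratio of Cxcl10 fell as low as 0.90. Cxcl14, a constitutive ligand of epithelium, was at 483 and 295. Of 26 keratinocyte cytokines, Tslp alone reached 50 CPM. Il33 was at 30.9 and 15.1 CPM, Il1a had 1 and 25 UMIs, and Il6 was at 6.00 and 24.0.

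Among receptors, 1 of 7 measured members was higher and 2 were lower, beside 4.08% and 6.8% of all genes. Osmr, the oncostatin M receptor, was the higher one, at 36.9 and 78.2 CPM, but at −0.28 on the log2 scale in cells with at least 1% Krt5 and Krt14, and below the follicle split 0 receptors were higher. Osmr was also higher outside KCs, at 59.3 and 178 CPM. Lower were Il20rb at 86.9 and 28.5 and Ifngr1 at 87.2 and 40.8, the latter above −1 after centring on the median gene. Il4ra, below the limit on mean level, was at 13.5 and 40.2 CPM and its partner Il13ra1 at 85.4 and 89.9. Of 5 measured JAK, STAT and SOCS genes Cish was lower, at 86.9 and 34.6 CPM, but at a log2 ratio of −0.40 with cells thinned to 1000 UMIs, and Socs3 was at 260 and 415. In the interferon list 2 of 6 measured members were higher, namely Ly6e at 101 and 475 CPM and Ifitm3 at 319 and 812, while Irf1 was at 123 and 209. None of 8 measured MHC class I genes was higher or lower (median −0.09), with B2m at 909 and 826 CPM. MHC class II genes did not reach 50 CPM.

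Of the metallothioneins, small proteins that bind zinc and copper, Mt1 and Mt2 were higher in AD and Mt4 was not. Mt4, of stratified epithelium, had 84 UMIs (25.2 CPM) in Ctrl and 0 in AD, below the limit on mean level. Mt4 was at 18.9 and 0.428 CPM outside KCs, so its Ctrl basal level lay near that of the other cells. Mt1 was at 625 CPM in Ctrl and 5340 in AD, a log2 ratio of 3.09 (3.03 to 3.16). Its median was 2.35 UMIs per 10000 in Ctrl and 46.7 in AD cells, and the upper quartile of Ctrl (6.76) lay below the lower quartile of AD (24.9). Mt2 was at 568 and 2566 CPM. Cells that were not KCs had the same direction, with Mt1 at 1279 and 8263 CPM. The other 5 measured members of the oxidative stress and metal list were neither higher nor lower, among them Gclm at 123 and 124 CPM. The 120 bases before each start (RefSeq, GRCm38.p6, plus strand) are shown because both genes were higher in AD, and capitals mark the core of the metal response element, searched as TGCACNC and TGCGCNC on both strands. One or the other was found in 12.4% of all promoters over the same length, and each window here has 1 match, in Mt2 on the opposite strand. The windows are chr8:94178969-94179088 and chr8:94172498-94172617.
Mt1: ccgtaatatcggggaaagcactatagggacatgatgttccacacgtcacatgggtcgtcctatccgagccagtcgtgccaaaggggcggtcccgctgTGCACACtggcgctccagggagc
Mt2: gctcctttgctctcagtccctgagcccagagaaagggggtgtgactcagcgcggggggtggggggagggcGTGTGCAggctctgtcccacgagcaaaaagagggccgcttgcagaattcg

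Immediate early and heat shock genes, which dissociation of tissue also induces, were abundant in both libraries, with summed levels of 27885 CPM in Ctrl and 21851 in AD. Of 19 measured members 1 was higher and 4 were lower (median −0.53), beside 4.08% and 6.8% of all genes. In the cells below the follicle split 2 were higher and 10 lower, where 5.49% and 9.16% of all genes were. Ier3 was at 508 and 1385 CPM, Nr4a1 at 604 and 140 and Hspa1a at 1539 and 620, while Fos was at 3954 and 3751. Ier3 was also higher outside KCs, at 281 and 1115 CPM, whereas Nr4a1 was at 620 and 877 there. Across the settings tried the log2 ratio rose as far as −0.15 for Hspa1b, −0.46 for Hspa1a and −0.94 for Dnajb1. That of Nr4a1 stayed at −1.30 or below. Among 26 nuclear genes of oxidative phosphorylation 1, Chchd10, was higher and none lower (median 0.17). Chchd10 turned to a log2 ratio of −0.34 with cells thinned to 1000 UMIs, and outside KCs it was at 18.7 and 292 CPM. Among 12 genes of glycolysis and hypoxia none was higher and 1, Tpi1, was lower (median 0.32). Across the settings tried the ratio of Tpi1 rose as far as −0.46, short of −1. In the Wnt, BMP and hedgehog list 3 of 11 measured members were higher and 2 lower, beside 4.08% and 6.8% of all genes. Id3 and Id2, targets of BMP signals, were at 378 and 1433 CPM and at 159 and 385, and Dkk3 was the third. Id3 was also higher outside KCs, at 481 and 1854 CPM, while Id2 was at 154 and 183 there. Ptch1, the hedgehog receptor, was at 78.2 and 38.0 (above −1 after centring on the median gene) and Sfrp1, a Wnt inhibitor, at 460 and 175. Sfrp1 turned to a log2 ratio of 1.16 in the cells below the follicle split. Of 5 measured matricellular and wound genes, Thbs1 was higher, at 115 and 579 CPM, and Ccn1 lower, at 378 and 145. In cells with at least 1% Krt5 and Krt14 neither passed, with log2 ratios of 0.40 and −0.77. Thbs1 was also higher outside KCs, at 173 and 1484 CPM, and Ccn1 was at 1227 and 880 there. The 1 measured hyaluronan gene, the receptor Cd44, was at 297 and 185 CPM.

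**Figure D3:**
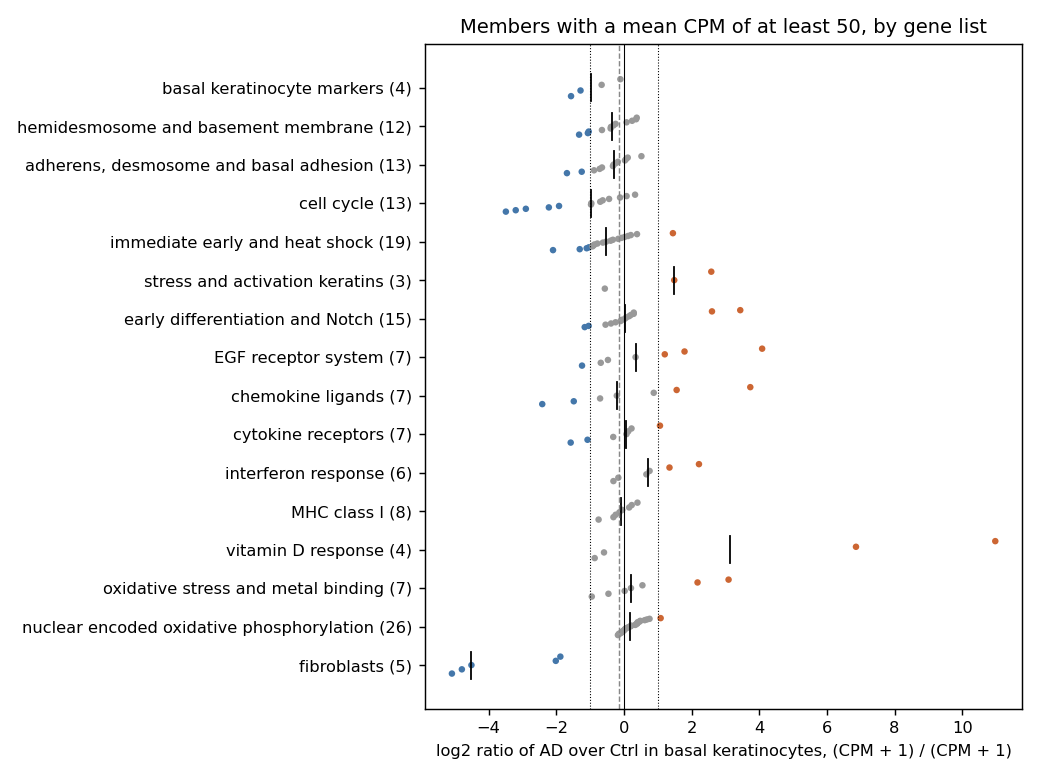
Each point is a list member with a mean of at least 50 CPM (number in brackets), at its log2 ratio of AD over Ctrl; black bars are medians, the dashed line is the median of all 3208 genes (−0.15) and dotted lines mark −1 and 1. The cell cycle and fibroblast lists lie to the left, and Cyp24a1 and Tslp, which reached the mean only through AD, stand apart in the vitamin D list.

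Transcripts of other cell types were counted in the basal cells. The fibroblast list summed to 758 CPM in Ctrl and 155 in AD, which is 1.85% and 1.56% of its level in cells that were not KCs (40938 and 9899 CPM). All 5 measured members were lower in AD, with Sparc, the most abundant, at 157 and 38.0 CPM and Col1a1 at 147 and 3.35. Pdgfra was 0 by the rule. Mgp was at 24.0 and 63.1 CPM. In the other cells Col1a1 was at 8426 and 562 CPM. The part of free RNA in the lower levels of basal cells was not tested. Markers of T cells summed to 4.80 and 1.67 CPM with Nkg7 at 0, those of Langerhans cells and macrophages to 31.8 and 17.3, of mast cells, basophils and neutrophils to 20.7 and 19.0 with Mcpt8 and Retnlg at 0, and of endothelium to 6.30 and 5.02. Melanocyte and Schwann cell markers summed to 28.5 and 41.3 CPM, led by Dct, those of Merkel cells to 4.20 and 24.6 with Krt20, Atoh1 and Sox2 at 0, and those of hair matrix and inner sheath to 43.2 and 55.3. The remaining lists for pericytes, muscle, erythroid cells and adipocytes summed to 72.8, 4.20, 28.2 and 10.5 CPM in Ctrl and to 30.1, 6.14, 15.1 and 12.8 in AD. The sebaceous list summed to 150 and 458 CPM through Mgst1 and Scd1, of which Scd1 turned to a log2 ratio of −2.07 in cells with at least 1% Krt5 and Krt14. The list summed to more in cells that were not KCs, at 336 and 620 CPM, with Mgst1 at 203 and 334 and Scd1 at 112 and 283. Of its other members, Cidea had 3 UMIs in Ctrl and 14 in AD, Elovl3 had 2 and 5, Awat2 4 and 4, Mc5r 4 and 3 and Far2 5 and 4.

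The ratios of basal cells were set beside those of the 9479 Ctrl and 7749 AD cells that were not KCs. There, 4.15% of the 3208 genes were higher in AD and 8.79% lower. Of the 131 genes that were higher in AD basal cells, 42 (32.1%) were also higher there and 14 (10.7%) were lower. Of the 218 lower genes, 81 (37.2%) were also lower there and 6 (2.75%) were higher. In the library where a gene was higher, 72 of the 131 (55%) and 91 of the 218 genes (41.7%) were at least 2 times as high in basal cells as in cells that were not KCs, beside 23.4% of all 3208 genes. Because the library with the higher basal level was used, genes with wide ratios meet this more easily. The other 186 included Lcn2, Cxcl1, F3, Nupr1 and Mt1 at the upper end and Col1a1, Scd2, Col3a1, Bgn and Col1a2 at the lower end. Outside KCs, Tslp was at 6.59 and 9.72 CPM and Cyp24a1 at 0 and 94.9.

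**Figure D4:**
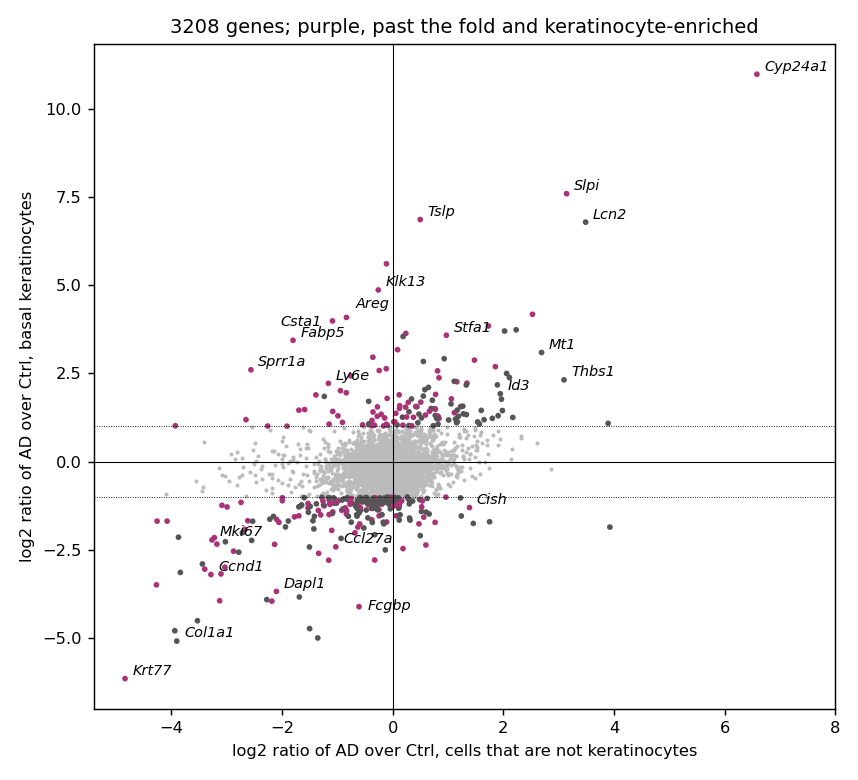
Each point is 1 of 3208 genes, with its log2 ratio of AD over Ctrl in cells that are not keratinocytes (x axis) and in basal KCs (y axis); dotted lines mark −1 and 1 in basal KCs. Purple genes lie past these lines and are at least 2 times as high in basal cells as in other cells of the library where they are higher, dark grey ones lie past them only. Tslp, Areg, Klk13 and Fabp5 have high ratios in basal cells and ratios near or below 0 in cells that are not KCs, while Mt1, Lcn2 and Col1a1 share their direction.

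Suprabasal KCs, cells with Krt1, Krt10 and Krtdap at 0.5% or more, numbered 348 in Ctrl and 8 in AD, so AD values for them rest on 8 cells. Cyp24a1 was at 0.712 CPM in Ctrl and 2826 in AD suprabasal cells, near the basal level. Tslp differed, with 2.28 and 4.94 CPM (16 and 1 UMIs), against 603 in AD basal cells. Klk13 was at 38.3 and 509 CPM in suprabasal cells and Fabp5 at 2224 and 13334, log2 ratios of 3.70 and 2.58 in the same direction as in basal cells. Krt77 was at 12355 CPM in Ctrl suprabasal cells, and Fcgbp, at 29.8 CPM there, was higher in Ctrl basal cells. Hair matrix and inner sheath cells numbered 30 in Ctrl and 0 in AD.

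The threshold of 0.5% cuts a continuous range. Just outside it, at 0.4% to 0.5%, were 92 Ctrl and 55 AD cells that met the other conditions, and just inside, at 0.5% to 0.6%, 56 and 39. Cyp24a1 in AD was at 1023 CPM just outside, 1169 just inside and 4009 in the 14 cells with at least 1%, while Ctrl had 0.955 CPM just outside and 0 in each band inside. At 0.3% to 0.4% Ctrl had 7 Cyp24a1 UMIs. Tslp in AD was at 0 CPM at 0.1% to 0.3%, 68.2 just outside, 84.3 just inside and 1636 at 1% or more. Slpi had 13 UMIs (12.4 CPM) in Ctrl just outside and 1 UMI just inside, against 55.3 and 199.5 CPM in AD, so its wide ratio belongs to the cells inside the threshold. Fabp5 was at 197 CPM in Ctrl and 299.9 in AD just outside and at 160.4 and 402 just inside, but at 0.1% to 0.3% its direction turned, with 4258 CPM in Ctrl and 1144 in AD. Krt15 in Ctrl was at 1660 CPM just outside and 2432 just inside, and in AD at 999 and 986. At 0.1% to 0.3% its direction turned as well, with 594 CPM in Ctrl and 652 in AD. Col17a1 was at 501 and 786 CPM in Ctrl and at 543 and 409 in AD, so the libraries crossed near the threshold, and at 0.1% to 0.3% Col17a1 was higher in AD (713 against 127 CPM).

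**Figure D5:**
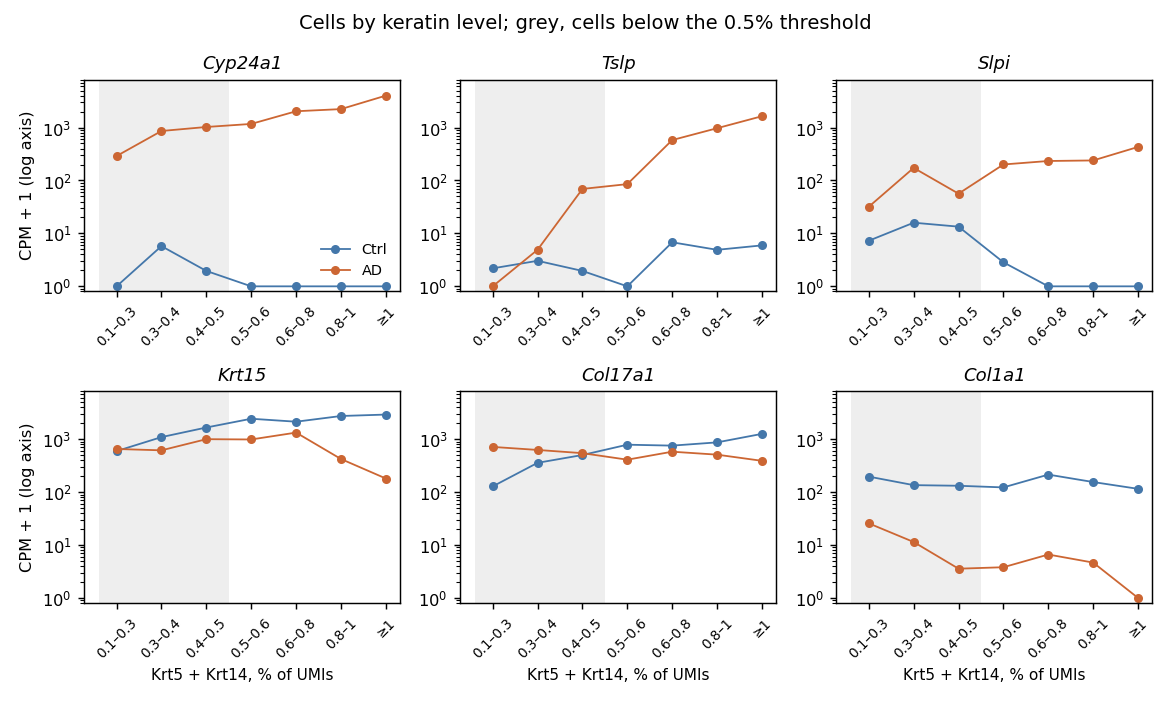
Levels in CPM + 1 (log axis) of 6 genes in cells grouped by Krt5 and Krt14 as a percent of UMIs (x axis), for Ctrl and AD; the grey area holds cells below the 0.5% threshold. Cyp24a1 lies above Ctrl in every band, Tslp runs from 84.3 to 1636 CPM within the AD basal cells, and the lines of Col17a1 cross.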

How the data were processed

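Dorsal skin was digested with collagenase and DNase, and 10x libraries were sequenced. For each library the authors deposited a matrix of UMI counts, neither normalized nor batch-corrected, mapped to mm10. The submitters' processing notes name Cell Ranger 3.1.0 and Seurat 5.0, and the matrix headers name Cell Ranger 5.0.0. The deposited counts held 12598 Ctrl barcodes with 125184653 UMIs and 8778 AD barcodes with 76106062 UMIs over 33904 genes.

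Barcodes with 200 to 6000 genes and at most 10% UMIs of 13 mitochondrial genes were kept, 11399 and 8179 in number. Of 5 follicle keratins in the rule 4 were used, and Krt85 was not analysed here. Cells that were not KCs had less than 0.1% of UMIs from each of the 3 keratin groups of the rule. UMIs were summed per library and class, with exact Poisson, Clopper-Pearson and conditional binomial intervals (95%), a floor of 3 counts, and 1 CPM added to each level before log2. These intervals cover counting error only. Scrublet (scanpy 1.11.5) called 395 Ctrl and 0 AD cells as doublets, so it had not worked in AD, and doublets were kept. Python 3.11.15, numpy 2.4.6 and scipy 1.17.1 were used.

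The members, the gene lists and the comparison were chosen with earlier results of these data known. The text names members of these lists, the stefin family, the 15 highest and 15 lowest ratios among genes with a mean of at least 50 CPM that were at least 2 times as high as outside KCs (ribosomal, mitochondrial and unnamed genes left out), and 5 at each end that were not. Coordinates follow GENCODE M21 and sequences RefSeq, both GRCm38. Cells or cutoffs were varied in 14 ways.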

Additional observations from a re-analysis of the deposited data

Results flagged for a closer look

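Named genes were singled out where basal KCs and cells that were not KCs lay on opposite sides of Ctrl by a log2 ratio of at least 1 each. With 1 library a condition this difference was not tested. Fabp5 had a log2 ratio of 3.44 in basal KCs and −1.80 in the other cells. Sprr1a had 2.60 and −2.56. Csta1 had 3.99 and −1.09, at 2.19 and 0.499 CPM in the other cells. Ly6e had 2.22 and −1.16. The direction was the opposite for Cish, a feedback inhibitor of cytokine signals, with −1.30 in basal KCs and 1.39 in the other cells, but its basal ratio was −0.40 with cells thinned to 1000 UMIs, short of the limit. The causes were not tested.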

How the results depend on the processing

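Of 91 named genes with a log2 ratio past 1 in either direction, 82 kept their sign and 55 stayed past 1 in all 12 settings tried on genes. The other 36 fell short of 1 in at least 1 setting, among them Lamb3, Dst, Notch1, Thbs1, Ccn1, Stmn1, Cxcl10, Tpi1, Lrig1, Mgst1, Prc1, Lgr5, Samd5, Ifngr1, Maf, Cish, Anln, Ctnnb1, Sparc, Ptch1, Id2 and Hspa1a. The 91 genes include Krt5 and Krt10, which the rule used, so nothing is read from their staying past 1. They also include genes that reached the mean through 1 library alone, such as Cyp24a1, Tslp, Slpi, Lcn2 and Klk13. The counts therefore describe the settings and are no support for single genes. The ratio of Cyp24a1 ran from 7.67 to 12.0, that of Tslp from 5.43 to 8.25, that of Mt1 from 2.00 to 3.37, that of Krt15 from −4.01 to −1.19 and that of Col17a1 from −1.95 to −0.72. Requiring 1% Krt5 and Krt14 left 117 Ctrl and 14 AD cells, with 247 genes higher and 476 lower, and gave Errfi1 −0.33, Defb6 1.38, Osmr −0.28 and Scd1 −2.07. Thinning to 1000 UMIs gave 278 and 391 genes, and Chchd10 at −0.34. A mean of at least 10 CPM gave 328 higher and 883 lower genes, and one of at least 200 CPM 34 and 32. Without cells with mitotic UMIs, 1 cell cycle gene stayed at −1 or below, Cenpf was at 0.97 and Cenpe at 0.56; these cells were chosen by Cenpf, Mki67, Top2a and 4 other mitotic genes, so the ratios of those genes are set by the choice and nothing is read from them. Without cells with follicle transcripts, Sfrp1 was at 1.16 and Tbx1 at 0.35, and Tbx1 belongs to the list that chose the cells. The mean of the CPM of each cell put Defb6 at 0.26. By construction fewer cells entered at 1%, fewer UMIs with thinning, fewer genes at 200 CPM and more genes at 10 CPM, and the other causes were not tested. Leaving out called doublets removed 2 basal cells. No paired analysis was possible because each group has 1 library. The 102 AD cells limit genes held by few cells, such as Tslp, Slpi, Stfa1 and Fabp5.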
